A study of Homo sapiens with 6 samples.

Results

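MECOM was examined through its intronic clusters, the places in its introns covered by RNA that stayed protected from nuclease in purified Rbfox1 complexes. Members were selected on their gene field: every cluster of the 2 deposited lists that named MECOM counted, once repeated rows were dropped. There were 321 among the 188027 clusters of the Rbfox1 F125A list and 697 among the 366429 of the Rbfox1 WT list, or 1018 of 554456 in all. The gene itself was chosen by its number of WT clusters that overlap no F125A cluster, in which it stood ninth of 11805 genes. That count was 372 for MECOM, against 399 for PARD3, the gene before it, and 364 for SDK1, the gene after it. These counts, and those of F125A against WT clusters below, therefore describe the choice and are not tested.

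The cells were HEK293 Flp-In, derived from human embryonic kidney and built to take up a transgene at 1 site, and all belonged to the Rbfox2 KO#7 line, which lacks Rbfox2. Cells carried FLAG-Rbfox1(F125A), with 2 libraries, FLAG-Rbfox1(WT), with 3, or no transgene as the control, with 1. Complexes of Rbfox1 with LASR, an assembly of other splicing proteins, were purified and their RNA was sequenced. One list stood for each Rbfox1 group and held places without read counts or scores, so no value has a replicate error, read depth is unknown and intervals cover counting error only. RNA of the control library was not analysed here, and whether it had been used to remove background from the lists was not given. The lists give no expression levels, so neither the identity of the cells nor the amount of MECOM precursor RNA was measured, and its part in the number of clusters was not tested.

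Rbfox proteins bind the RNA pentamer GCAUG through an RNA recognition motif and, from introns, direct the inclusion or skipping of nearby exons. The F125A change replaces a phenylalanine of that motif with alanine. MECOM encodes a zinc finger transcription factor of the PRDM family that acts in blood stem cells and is switched on by chromosome rearrangements in some myeloid leukaemias. A distal start gives the long form, which carries a PR domain, and proximal starts give the shorter EVI1 form, which lacks it. Introns of the long form reach from the distal to beyond the proximal starts.

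On GRCh38.p14 the RefSeq gene lies on chromosome 3, minus strand, from 169083507 to 169663712, a length of 580 kb. The RefSeq promoter table gives 3 starts for it, each with 250 bases before and 50 after, and these windows are shown because the starts are the landmarks that divide the gene below. Capitals mark GCATG, the DNA form of the Rbfox pentamer, searched on both strands.
Distal start, chr3:169663663-169663962, minus strand: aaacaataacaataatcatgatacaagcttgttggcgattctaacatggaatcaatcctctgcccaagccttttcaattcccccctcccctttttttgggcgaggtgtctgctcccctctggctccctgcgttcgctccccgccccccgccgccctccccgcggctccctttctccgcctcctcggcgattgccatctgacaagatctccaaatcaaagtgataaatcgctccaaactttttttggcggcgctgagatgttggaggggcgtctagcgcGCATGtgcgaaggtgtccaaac
First proximal start, chr3:169147422-169147721, minus strand: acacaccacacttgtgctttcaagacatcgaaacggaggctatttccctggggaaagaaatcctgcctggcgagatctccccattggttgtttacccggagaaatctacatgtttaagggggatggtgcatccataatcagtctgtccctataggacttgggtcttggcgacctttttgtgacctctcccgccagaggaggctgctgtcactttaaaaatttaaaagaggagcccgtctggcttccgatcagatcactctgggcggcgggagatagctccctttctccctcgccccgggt
Second proximal start, chr3:169146490-169146789, minus strand: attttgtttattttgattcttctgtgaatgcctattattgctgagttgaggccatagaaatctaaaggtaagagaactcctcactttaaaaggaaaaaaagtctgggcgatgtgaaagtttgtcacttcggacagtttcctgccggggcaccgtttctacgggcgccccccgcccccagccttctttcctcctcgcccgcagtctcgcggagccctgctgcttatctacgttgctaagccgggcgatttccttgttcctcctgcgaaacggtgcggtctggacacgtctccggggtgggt
The distal window held GCATG once, on the strand of the gene, beginning at base 29 of the transcribed part. Neither proximal window held it on either strand. Of 35116 promoter windows of this length, 19.6% held it on the strand of the gene and 29.5% on either strand. A match is a description of the letters. No F125A and no WT cluster overlapped any of the 3 MECOM windows, but most of the distal window lies upstream of the gene, outside the introns that the lists describe.

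MECOM gave many clusters with both forms of Rbfox1. The 321 F125A clusters came to 55.3 per 100 kb of gene (exact Poisson 95% interval 49.4 to 61.7), and the 697 WT clusters to 120.1 per 100 kb (111.4 to 129.4). They covered 21877 nt, or 3.77% of the gene, with F125A and 44088 nt, or 7.60%, with WT. All lay on the minus strand of MECOM and inside its annotated bounds, and no cluster of another gene lay within those bounds in either list. By number of clusters MECOM was 11th of 11805 genes in each list.

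Set against genes of its own size, MECOM stood near the top in both lists. This place is a description, since the 372 WT clusters by which the gene was chosen are among its 697. Of 131 genes (MECOM included) of 0.8 to 1.25 times its length with at least 20 clusters, the median gene had 11.1 F125A and 29.8 WT clusters per 100 kb. Only ERC1, TTC28 and DNAH14 had more F125A clusters per 100 kb than MECOM, with 78.7, 70.5 and 60.9. Only ERC1 had more WT clusters per 100 kb, with 122.3. ERC1 is a scaffold of the presynaptic active zone and DNAH14 an axonemal dynein heavy chain, and all 3 genes were named after their values were seen. Among all 5626 genes with at least 20 clusters, whatever their length, 1342 had more F125A and 701 more WT clusters per 100 kb.

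**Figure D1:**
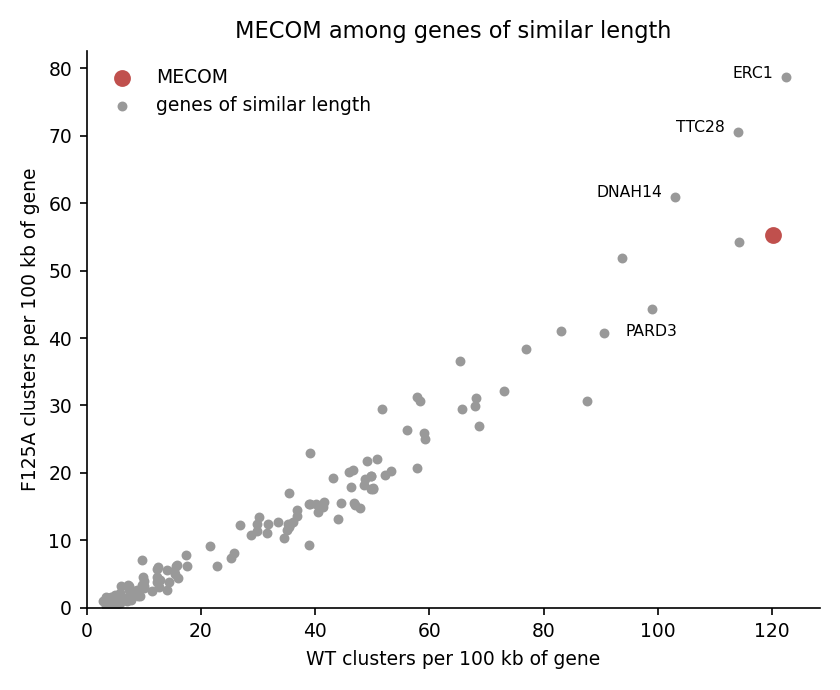
F125A clusters per 100 kb of gene (vertical axis) against WT clusters per 100 kb (horizontal axis), with 1 point for each of the 131 genes of similar length and MECOM in red. MECOM sits at 55.3 and 120.1, and ERC1, at 78.7 and 122.3, is the only gene beyond it on both axes.

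MECOM had 2.17 WT clusters for each F125A cluster, against 1.95 in the whole lists. The log2 ratio of F125A to WT clusters, with 1 added to each and the ratio of the list totals subtracted, was -0.15. Its exact binomial interval of -0.35 to 0.04 describes counting error only and tests nothing, since the gene was chosen from these counts and the lists share places. Across 5626 genes the median was 0.04, with quartiles of -0.26 and 0.36. Of these genes, 1.99% lay 2-fold or more toward F125A and 2.51% lay 2-fold or more toward WT. The direction for MECOM turned when gene length was taken into account: the 282 genes of 407 to 2299 kb had a median of -0.42, and relative to them MECOM lay at 0.27, on the side of F125A. On that scale 0.462% of genes lay 2-fold or more toward F125A and 2.1% toward WT.

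Clusters were concentrated at the 5' end of the gene in both lists. Of the F125A clusters, 94 of 321 lay in the first 10% of the gene's length, a share of 29.3% (exact interval 24.4 to 34.6%). Of the WT clusters, 155 of 697 lay there, or 22.2% (19.2 to 25.5%). Over all genes these shares were 15.7% with F125A and 13.9% with WT. The median F125A cluster lay 107 kb from the distal start (interval of the median 93.7 to 126 kb) and the median WT cluster 151 kb (133 to 167 kb).

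The share on the 5' side was higher with F125A than with WT. The first 50% of the gene held 249 F125A clusters, 77.6% (exact interval 72.6 to 82.0%), and 480 WT clusters, 68.9% (65.3 to 72.3%). The difference of 8.70 percentage points was not tested, because most F125A clusters overlap a WT cluster and the lists are not independent samples. In 855 genes with at least 50 clusters in each list the median difference was 1.69 points, 526 genes had the higher share with F125A, 311 with WT, and 65 had a larger difference than MECOM. Of the 68 such genes of 0.8 to 1.25 times its length, the median was 3.56 points and 7 exceeded MECOM. The share in the first 50% was itself higher than in MECOM in 19 of the 68 with F125A and 27 with WT.

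**Figure D2:**
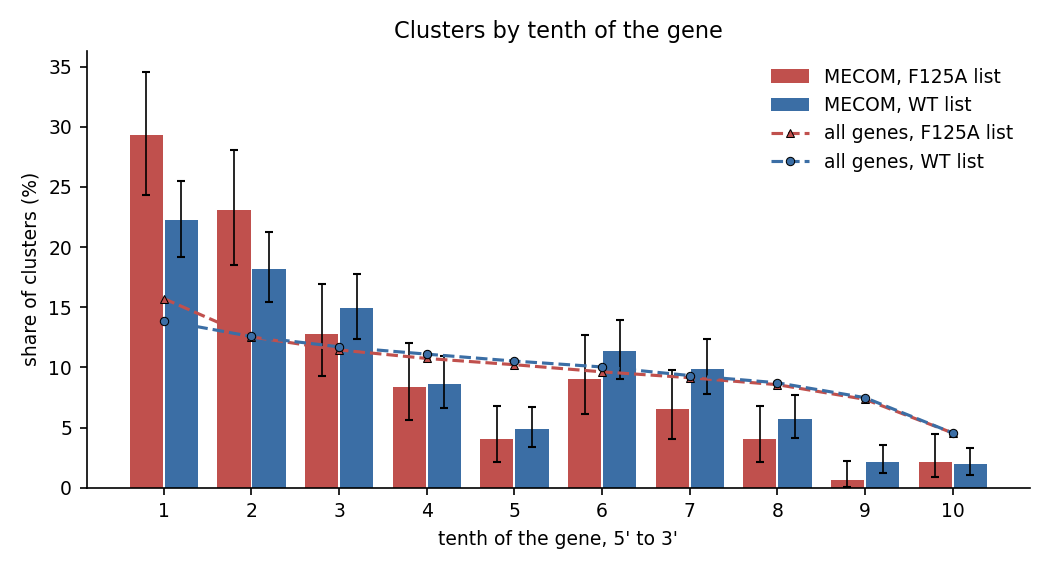
Share of clusters (vertical axis, %) in each successive 10% of the gene from 5' to 3' (horizontal axis), as bars for MECOM in the F125A and WT lists with exact binomial 95% intervals, and as dashed lines for all genes. The first 10% of MECOM held 29.3% of F125A and 22.2% of WT clusters, against 15.7% and 13.9% over all genes.

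The decline along the gene was not even. In windows of 10 kb from the distal start, F125A clusters numbered 10 to 26 and WT clusters 19 to 41 over the first 100 kb. From 210 to 280 kb no window had more than 2 F125A or 8 WT clusters. The next window, from 280 to 290 kb, held 10 F125A and 17 WT clusters, and the promoter table has no start of MECOM there. Beyond it the counts fell unevenly toward the proximal starts. WT clusters numbered 22 from 300 to 310 kb, 5 from 380 to 390 kb and 14 from 390 to 400 kb.

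In densities over these stretches, whose bounds were chosen after the profile was seen, F125A had 15.1 clusters per 10 kb from 0 to 100 kb (exact Poisson interval 12.8 to 17.7) and WT 25.4 (22.4 to 28.7). Between 210 and 280 kb, F125A had 1.00 per 10 kb (0.40 to 2.06) and WT 4.00 (2.66 to 5.78). From 280 to 350 kb, F125A had 6.14 per 10 kb (4.45 to 8.27) and WT 14.4 (11.8 to 17.5). From 460 kb to the end of the gene, F125A had 0.75 per 10 kb (0.34 to 1.42) and WT 2.58 (1.75 to 3.66).

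The 2 lists had similar profiles, although WT clusters per F125A cluster ran from 1.68 over the first 100 kb to 4.00 between 210 and 280 kb. Over the 59 windows the counts of the lists had a Spearman rho of 0.93 and a Pearson r of 0.90, a description only, since most F125A clusters share a place with a WT cluster. The median window held 3 F125A and 10 WT clusters. No window held F125A clusters alone, 8 held WT clusters alone, and 2 were empty in both. In 1 window, from 230 to 240 kb, F125A clusters outnumbered WT clusters, by 2 to 1, where a single WT cluster of 145 nt overlapped both F125A clusters.

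**Figure D3:**
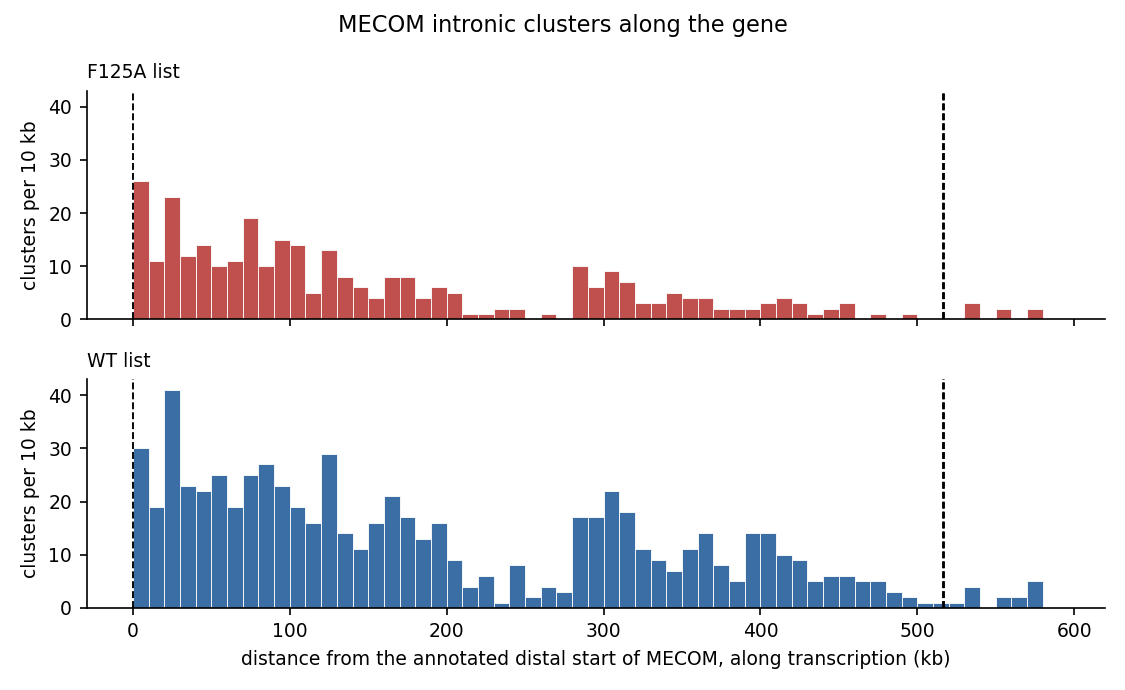
Clusters per 10 kb (vertical axis) against distance from the distal start along transcription (horizontal axis, kb), F125A list above and WT list below, on the same scale. Dashed lines mark the distal start at 0 and the 2 proximal starts, drawn at 516 and 517 kb. Both lists are densest over the first 100 kb, sparse from 210 to 280 kb and denser again from 280 kb.

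Few clusters lay downstream of the proximal starts, in the part of the gene that the short and long forms share. The 516 kb between the distal and the first proximal start held 314 F125A clusters, or 60.8 per 100 kb (exact Poisson interval 54.3 to 67.9), and 682 WT clusters, or 132 per 100 kb (122 to 142). The 64.0 kb from there to the gene end held 7 F125A clusters, or 10.9 per 100 kb (4.40 to 22.5), and 15 WT clusters, or 23.5 per 100 kb (13.1 to 38.7). The upstream part thus held 97.8% of the MECOM clusters in each list. Its density averages in the dense 5' end, and clusters were already few close to the proximal starts. The 10% of the gene from 464 to 522 kb, which spans these starts, held 2 F125A and 15 WT clusters, and the last 10% held 7 and 14. A change of density at the starts themselves was not tested. Exon positions were not used here, so densities are per length of gene and not per length of intron.

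The surroundings of the proximal starts were nearly bare. Downstream of the first proximal start the next F125A cluster began after 14.3 kb and the next WT cluster after 3.08 kb. Upstream of it the nearest lay 20.3 kb away with F125A and 8.11 kb away with WT. The longest stretch of MECOM without an F125A cluster, 34.5 kb at chr3:169133214-169167747, spans both proximal starts and holds 3 WT clusters. The longest stretch with no WT cluster, 16.3 kb at chr3:169108924-169125180, holds no F125A cluster either. The distal start differs from this, since the first F125A cluster lay 468 nt and the first WT cluster 467 nt downstream of it.

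At each end of the gene the outermost clusters of the lists nearly coincided. Edges over all pairs are given below. The most 5' F125A cluster, chr3:169663203-169663244, is 42 nt long, and its WT partner, chr3:169663201-169663245, 45 nt. At the other end, 578 kb downstream, the last F125A cluster is chr3:169085237-169085295 and the last WT cluster chr3:169085238-169085296, 59 nt each and shifted by 1 nt.

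Nearly all F125A places in MECOM were also WT places. Of the F125A clusters, 309 of 321 shared at least 1 nt of the same strand with a WT cluster, which is 96.3% (exact interval 93.6 to 98.1%), against 85.5% in the whole list. Of the WT clusters, 325 of 697 overlapped an F125A cluster, 46.6% (42.9 to 50.4%), against 45.2% in the whole list. The rest of the 697 are the 372 by which the gene was chosen, so this WT share is a description. The F125A share in MECOM was exceeded in 24 of the other genes with at least 50 clusters in each list, whose median over 855 genes was 88.7%. Among the 68 of them near its length it was exceeded only by ZNF536, a zinc finger gene named after its value was seen, at 96.4%. WT clusters covered 7.60% of MECOM, and the part of their density in this share was not tested.

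Within MECOM the share of WT clusters with an F125A partner was highest at the 5' end. It was 62.6% in the first 10% of the gene (97 of 155, exact interval 54.5 to 70.2%) and 59.1% in the next (75 of 127, 49.98 to 67.7%). From there to 80% of the length it ranged from 29.0% to 45.0%, with 29.0% (20 of 69, 18.7 to 41.2%) between 60% and 70%. In the last 20% it rested on few clusters, 3 of 15 and then 7 of 14. F125A clusters were denser at the 5' end too, and the part of that density in the share was not tested. Since the gene was chosen by its WT clusters without a partner, these shares are a description. The ratio of F125A to WT clusters was also taken relative to MECOM as a whole, with nothing added to the counts. On the log2 scale it was highest in the first 10%, at 0.40 (interval 0.01 to 0.78) with 94 F125A and 155 WT clusters. It was lowest between 80% and 90%, at -1.79 (-4.96 to 0.32) with 2 F125A and 15 WT clusters. These are the extremes of 10 values and are given as a description.

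**Figure D4:**
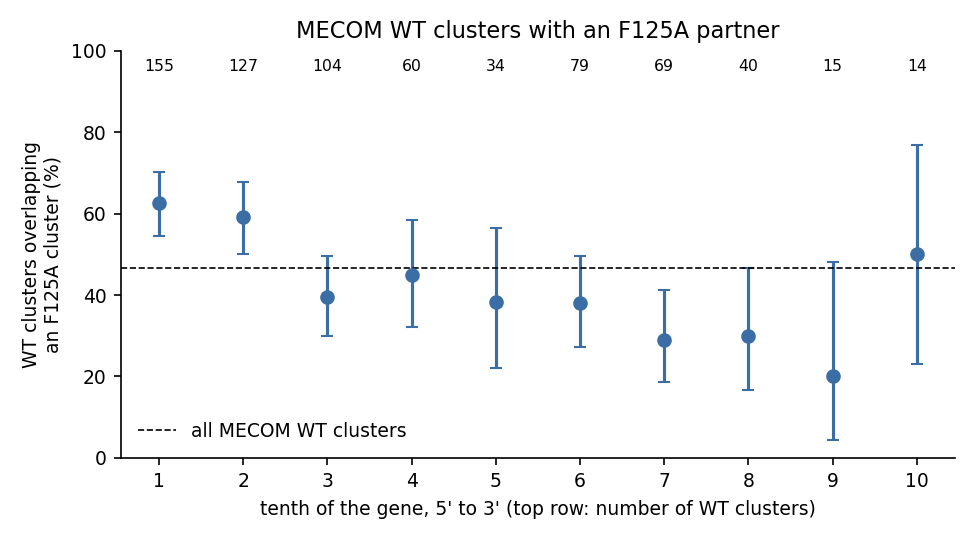
Percent of MECOM WT clusters that overlap an F125A cluster (vertical axis) in each successive 10% of the gene from 5' to 3' (horizontal axis), with exact binomial 95% intervals and the number of WT clusters at the top. The dashed line is the share over the gene, 46.6%. The first points lie at 62.6% and 59.1%.

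The 12 F125A clusters without a WT partner were spread over the gene. Their median distance to the nearest WT cluster was 54 nt, with a range of 2 to 1211 nt, and 5 were closer than 50 nt. The most isolated, chr3:169276943-169277039, is 97 nt long and lies 387 kb from the distal start. The 372 WT clusters without an F125A partner lay at a median of 486.5 nt from the nearest F125A cluster (quartiles 144 and 1287 nt), and 46 were closer than 50 nt. The 2 distances are not comparable, since the F125A list is the sparser.

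Places found in both lists often had similar edges. In 268 cases 1 F125A cluster overlapped 1 WT cluster and neither had another partner. Their 5' edges lay within 10 nt of each other in 192 pairs (71.6%) and their 3' edges in 204 pairs (76.1%), against 73.0% and 74.7% over the 139762 such pairs of all genes. Both edges were identical in 9 MECOM pairs, or 3.36%, against 4.87% over all genes. The F125A cluster was the longer in 113 pairs, the shorter in 138 and equal in 17, with a median difference of -1 nt. A further 25 F125A clusters overlapped 2 WT clusters and 2 overlapped 3, while 13 WT clusters overlapped 2 F125A clusters.

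MECOM clusters had the lengths usual for their list. The median was 63 nt with F125A (interval of the median 59 to 66 nt, quartiles 51 and 82 nt), against 64 nt in the whole list. With WT it was 60 nt (58 to 62 nt, quartiles 47 and 75 nt), against 60 nt in the whole list. WT clusters with a partner had a median of 64 nt (60 to 66 nt) and those without one 56.5 nt (54 to 61 nt). F125A clusters with a partner had a median of 62 nt (59 to 66 nt) and the 12 without one 76 nt (51 to 97 nt). Clusters over 100 nt made up 9.35% of F125A (30 of 321, exact interval 6.39 to 13.1%) and 6.46% of WT clusters (45 of 697, 4.75 to 8.54%), against 11.4% and 7.77% in the whole lists.

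**Figure D5:**
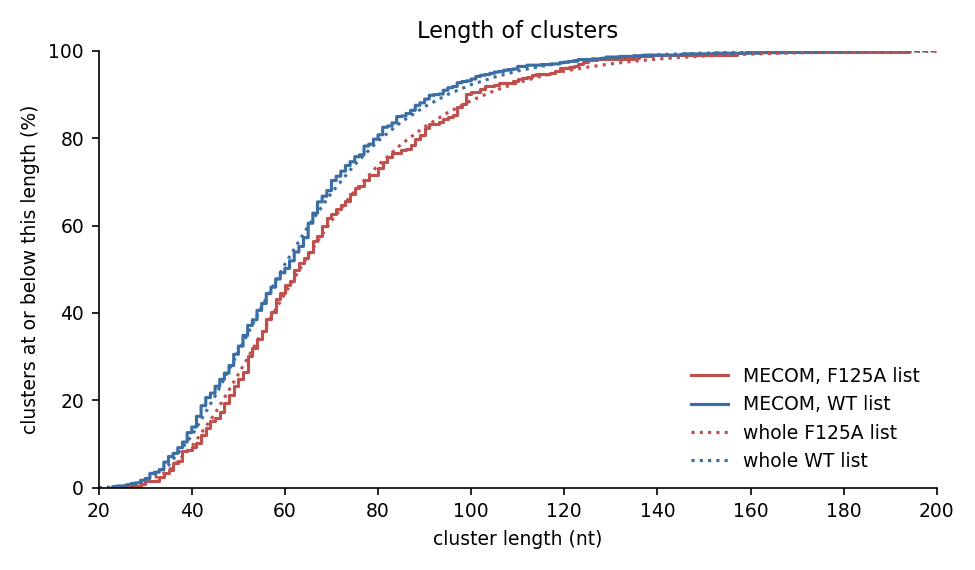
Percent of clusters at or below a given length (vertical axis) against cluster length (horizontal axis, nt), as solid lines for MECOM and dotted lines for the whole lists, F125A in red and WT in blue. The MECOM lines follow those of their lists, with medians of 63 nt for F125A and 60 nt for WT.

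The longest clusters of the lists did not coincide. The longest F125A cluster, chr3:169660195-169660388, spans 194 nt and lies 3.32 kb from the distal start. It overlaps a single WT cluster of 86 nt, chr3:169660280-169660365. The longest WT cluster, chr3:169535522-169535701, spans 180 nt, lies 128 kb from the distal start and has no F125A partner.

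Neighbouring clusters were closer together in the WT list, which holds more of them. The median gap between neighbours was 641 nt with F125A (quartiles 184 and 1675 nt) and 330 nt with WT (86.8 and 846 nt). Clusters that touched without overlapping numbered 11 pairs with F125A and 48 with WT. Gaps under 50 nt numbered 37 with F125A and 129 with WT, and merging across them left 284 F125A and 568 WT clusters.

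By the density and overlap of their clusters, 5 genes were most like MECOM among 1462 genes with at least 100 clusters. Likeness was the Euclidean distance over 4 quantities, each divided by its SD across genes: log2 F125A and log2 WT clusters per 100 kb and the shares of each list with a partner. The median distance to MECOM was 2.20. SMAD3, a transducer of TGF-beta signals, lay at 0.23 with 68 F125A and 142 WT clusters. RBM33, an RNA-binding protein, also lay at 0.23, with 78 and 172. KDM6A, a histone demethylase, lay at 0.28 with 141 F125A and 288 WT clusters, RANBP9 at 0.33 with 57 and 115, and AUTS2 at 0.34 with 631 and 1463. In position along the gene they differed: the first 50% held 75% of F125A and 66.9% of WT clusters in SMAD3, but 52.6% and 54.7% in RBM33.

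The other genes of the PRDM family, zinc finger proteins that mostly carry a PR domain, had fewer clusters than MECOM. These counts do not allow for gene length. Of 14 listed, 10 had any and 7 had at least 20 in both lists together. Of the 11805 genes with any cluster, 5626 had at least 20, so these counts are a description. Per 100 kb, PRDM4 (67.2) and PRDM15 (60.4) exceeded the 55.3 of MECOM with F125A, and the others listed did not. With WT none of those listed exceeded the 120.1 of MECOM. The log2 ratio was above 0 in 4 of the 7 and below 0 in 3, with a median of 0.09, against 0.04 over all genes. None was past 2-fold, but few genes of the whole lists were (1.99% toward F125A and 2.51% toward WT), so this count is no result about the family. PRDM16, the closest relative of MECOM, had 65 F125A and 119 WT clusters, or 17.6 and 32.2 per 100 kb, with a ratio of 0.10 (interval -0.37 to 0.54). PRDM6 had 42 and 78 (0.09), PRDM15 49 and 57 (0.75, interval 0.16 to 1.32), PRDM2, a histone methyltransferase, 12 and 47 (-0.92, -2.06 to -0.07) and PRDM10 13 and 36 (-0.44).

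Genes whose products bind MECOM, or that it is known to regulate, were looked up as well. Of 18 listed, 16 had clusters and 13 had at least 20. That too is a description, beside 5626 of the 11805 genes with any cluster that had at least 20. The log2 ratio of the 13 was positive in 7 and negative in 6, and the median was 0.13, against 0.04 over all genes. None was past 2-fold, which again is no result beside the 1.99% and 2.51% of all genes. EHMT1, a histone methyltransferase, had 143 F125A and 244 WT clusters (0.20), SMAD3 68 and 142 (-0.09), MAPK8, a stress kinase, 48 and 119 (-0.33), and the acetyltransferase CREBBP 51 and 112 (-0.16). The corepressor CTBP1 had 43 and 54 (0.64, interval 0.02 to 1.24) and ZBTB16, a zinc finger factor, 25 and 66 (-0.40). RUNX1, a blood cell factor fused to MECOM in some leukaemias, was chosen after its value was seen and had 6 and 21 (-0.69, -2.44 to 0.51).

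The nearest protein-coding genes on chromosome 3 had fewer clusters than MECOM, but both are much shorter, and the counts do not allow for length. ACTRT3, 103 kb beyond the distal start and 2.64 kb long, had no cluster in either list. GOLIM4, a Golgi membrane protein gene 988 kb beyond the 3' end and 87.2 kb long, had 16 F125A and 48 WT clusters.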

How the data were processed

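The authors deposited 1 list of cluster positions per Rbfox1 group, and the labels of all samples of a group point to the same list. Rows hold a place, a gene and a strand, per the file headers. The deposited values are genome positions in nt, without counts or scores. Libraries were made from cDNA inserts of 20 to 80 nt with 4-nt molecular identifiers, per the labels' protocols. Reads were processed with cutadapt and STAR on hg38, per the submitters' processing notes. Not given in the sources used here are the cluster caller, its threshold, the way libraries were combined and any use of the control. Of columns with per-sample values, 0 were left unused.

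The lists count starts from 0; printed positions count from 1. Dropping repeated rows removed 4851 F125A and 7029 WT rows, none of MECOM. Gene bounds came from RefSeq on GRCh38.p14, matched by symbol or unique synonym for 11797 of 11805 names, and starts from its promoter table, without exon positions. Overlaps were found with bedtools 2.31.1, other values with Python 3.11.15, pandas 2.3.3 and SciPy 1.17.1. The scripts were tested on simulated data. A cluster was placed by its midpoint. Ratios needed 20 or more clusters over the pair of lists, and gene length was corrected in 20 bins. Intervals are 95% and exact, and treat clusters as independent. With 1 list per group no test was run. The named genes were MECOM, the 5 most alike, its neighbours in rank and place, and up to 6 genes with most clusters of each of 2 lists. Named outside this rule, after their values were seen, were ERC1, TTC28, DNAH14, ZNF536, RUNX1 and PRDM4. The value of 1 gene within the rule is not reported here. Members, lists and rules were chosen with earlier results of these data known.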

Additional observations from a re-analysis of the deposited data

How the results depend on the processing

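Of 24 alternative values, 17 stayed within the counting interval of the reported value or, for counts of genes, within 1.5 times. Relative to its length bin, the 282 genes of 407 to 2299 kb, the MECOM log2 ratio of F125A to WT clusters was 0.27 in place of -0.15. Long genes as a group lean to WT. Under the other 5 settings it ranged from -0.19 to -0.08. When a partner had to cover at least 50% of a cluster, 93.1% of F125A clusters had one. With clusters closer than 50 nt merged, the median WT length was 65 nt. Genes 2-fold or more toward WT numbered 141 as reported, 263 with a minimum of 10 clusters and 36 with 5 added. Genes 2-fold or more toward F125A numbered 112 as reported, 273 with a minimum of 10 clusters and 26 relative to genes of the same length bin. The shares in the first 50% of the gene stayed within their intervals in both lists. No paired analysis was possible because each group has 1 list and no column carries a replicate. For the same reason no library could be left out, and read depth, which limits how many places a list can hold, is unknown.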
